A study of Daphnia magna with 9 samples.

Results

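The genome of the water flea Daphnia magna carries 3 genes of the DNA (cytosine-5) methyltransferase (DNMT) family that are described here: DNMT1 (Dapma7bEVm005001t1), DNMT3.1 (Dapma7bEVm006722t1) and DNMT3.2 (Dapma7bEVm011900t1). They were chosen by gene ID from the deposited expression table, where they are 3 of 42462 gene IDs and 3 of 47109 features, and all 3 passed the filter on low counts that left 18675 features for testing. The deposited names match the family: DNMT1 is listed as a DNA (cytosine-5)-methyltransferase PliMCI-like, DNMT3.1 as a 3B-like isoform X1 and DNMT3.2 as a 3A-like enzyme. RNA of whole female daphnids aged 12 days was sequenced in 3 groups of 3 libraries, each library from a pool of 5 animals at their second clutch with the eggs taken out. The groups were the NIES wild type under starvation (starved wild type), a DNMT3.1 mutant line under starvation (starved mutant) and the same mutant line on full food (nutrient-rich mutant), where starved animals received an 8-fold smaller daily ration of Chlorella algae. Nutrient-rich wild-type libraries were not analysed here, so the comparison of the starved with the nutrient-rich condition was made in the mutant line.

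The mutant line descends from 1 founder animal, is biallelic and carries frameshift indels with premature stop codons in DNMT3.1. Its transcript can still be counted, so the number of DNMT3.1 reads does not check the genotype. No second mutant line was sequenced, and a difference between the lines cannot be told apart from other differences between this founder's descendants and the wild type. The guide RNA of the mutagenesis is shown because it marks which of the 3 genes was altered. It has 21 spacer bases followed by the 3 bases of the protospacer adjacent motif, which are in capitals.
gRNA_DNMT3.1: ggaagaggtgtacgaactcaaTGG

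In animals, DNMT1 copies the methylation of cytosines in CpG dinucleotides onto the new strand after DNA replication, and DNMT3 enzymes place methyl groups on DNA that had none. The methyl group comes from S-adenosylmethionine, and in mammals UHRF1 brings DNMT1 to half-methylated DNA while TET dioxygenases start the removal of methylcytosine. Arthropod genomes are sparsely methylated. Of the D. magna DNMT3 proteins, DNMT3.1 has a diverged catalytic domain, as mammalian DNMT3L does, and DNMT3.2 lacks the PWWP domain but keeps the catalytic motifs.

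Libraries held 9270993 to 11806614 counted reads. Nutrient-rich mutant replicate 2 differed from the rest, with 19.5% of its reads in the 10 largest features where the other libraries had 8.60% to 12.9%. Its log2 levels correlated with those of the other nutrient-rich libraries at 0.893 and 0.908 with 0.956 between those 2. It also had the highest summed level of 16 germ line and ovary genes, 3674 CPM (reads scaled to a common library size after TMM) against 1312 and 1368 in its group, and values that rest on it are given below. RNA came from whole bodies, so fewer cells of a type and less RNA per cell cannot be told apart. The authors state that each treatment was carried out 3 times to give the 3 libraries of a group, and the p-values measure the spread between these libraries.

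DNMT1, the maintenance enzyme, was higher in both mutant groups than in the starved wild type, but no difference passed the threshold for a call, which was an edgeR adjusted p under 0.05 over all 18675 features with a fold change of at least 1.5. In the starved wild type its level was 11.5, 8.00 and 13.2 CPM in replicates 1 to 3. Replicates of the starved mutant had 15.5, 30.0 and 24.6 CPM, and those of the nutrient-rich mutant 17.2, 26.4 and 16.5 CPM. All 6 mutant libraries lay above all 3 wild-type libraries, and the 2 mutant groups overlapped. These levels rest on 80 to 139 reads per library in the wild type and 157 to 389 in the mutant. As mean ± SD of 3 libraries the groups had 10.9 ± 2.67, 23.3 ± 7.32 and 20.0 ± 5.52 CPM in that order.

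Between the starved groups DNMT1 differed 2.14-fold (95% interval 1.33 to 3.43), on the log2 scale by 1.10 with a standard error of 0.30 and an edgeR adjusted p = 0.0623. In this comparison edgeR called 0 of the 3 genes, while the unadjusted p of 1 was under 0.05, DESeq2 called 1 and limma-voom called 2. Among all features edgeR called 7.16%, while DESeq2 called 2116 features and limma-voom 4181. The share with an unadjusted p under 0.05 was 19.5%. Groups that did not overlap were found in 41.2% of features, so the separation of DNMT1 is a common one. Its call depended on the processing: 7 of 17 alternatives called it, among them the fit without starved mutant replicate 1 (log2 fold change 1.31, edgeR adjusted p = 0.0298) and that without nutrient-rich mutant replicate 2 (1.11, edgeR adjusted p = 0.0229). Between the mutant groups the log2 fold change of starved over nutrient-rich was 0.22 (95% interval -0.44 to 0.89, edgeR adjusted p = 0.631), an interval that takes in more than a 1.5-fold difference upward. In that pair 40.3% of all features did not overlap and 37.1% had an unadjusted p under 0.05. The starved wild type lay below the nutrient-rich mutant by a log2 fold change of -0.87 (95% interval -1.56 to -0.19, edgeR adjusted p = 0.0818), and line and food cannot be told apart in that pair.

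DNMT3.1, the mutated gene, was the most abundant family member in each starved library and fell to a low level in the nutrient-rich mutant. Starved wild-type replicates 1 to 3 had 85.2, 111 and 79.2 CPM. The mutant line had 87.6, 40.0 and 61.7 CPM when starved and 10.8, 4.40 and 9.69 CPM on full food. The starved groups overlapped, with starved mutant replicate 1 inside the wild-type range and replicates 2 and 3 below it, and all 6 starved libraries lay above the 3 nutrient-rich ones. The read numbers were 520 to 1114 per starved library and 109, 35 and 92 in the nutrient-rich mutant.

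In the mutant line DNMT3.1 was 7.54-fold higher when starved (95% interval 4.15 to 13.7, log2 fold change 2.91, standard error 0.38, edgeR adjusted p = 0.000906). It was the 1 DNMT gene of 3 called in this comparison, beside 23.1% of all features called, and 3.89% of the features tested had a larger absolute log2 fold change. The call held in each of 17 alternatives, with log2 fold changes of 2.60 to 3.24. The starved wild type exceeded the nutrient-rich mutant by 3.46 on the log2 scale (standard error 0.39, edgeR adjusted p = 0.00115), a fold change with a 95% interval of 5.98 to 20.2. It was again the 1 call among the 3 genes, where 13.9% of all features were called, 39.5% did not overlap and 33.2% had an unadjusted p under 0.05. Both comparisons use the same nutrient-rich libraries, and the nutrient-rich wild type would be needed to separate line from food. Between the starved groups the log2 difference, mutant over wild type, was -0.54 (95% interval -1.32 to 0.24, standard error 0.35, edgeR adjusted p = 0.464), so that a fall of more than 2-fold lies within the interval. That difference was called in 0 of 17 alternatives, which ran from -0.86 to -0.30 on the log2 scale. In at least 1 of them the adjusted p was under 0.05 but the fold change was under 1.5.

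DNMT3.2, the DNMT3 gene with the complete set of catalytic motifs, was near the lower end of the tested genes in each group. The starved wild type had 2.45, 2.20 and 2.00 CPM in replicates 1 to 3. Replicates of the starved mutant had 2.16, 1.23 and 1.04 CPM, and those of the nutrient-rich mutant 1.49, 2.64 and 2.84 CPM. The 3 groups overlapped pairwise, with starved mutant replicates 2 and 3 the lowest of the 9 libraries. Between 12 and 27 reads per library were counted. The log2 fold change of the starved mutant was -0.59 against the starved wild type (95% interval -1.45 to 0.27, edgeR adjusted p = 0.473) and -0.65 against the nutrient-rich mutant (95% interval -1.52 to 0.21, edgeR adjusted p = 0.255). Between the starved wild type and the nutrient-rich mutant it was -0.06 (95% interval -0.92 to 0.79, edgeR adjusted p = 0.919). Each interval takes in changes of more than 1.5-fold, so a difference of that size is not excluded, and limma-voom called the difference between the starved groups (log2 fold change -0.97, adjusted p = 0.0167).

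**Figure D1:**
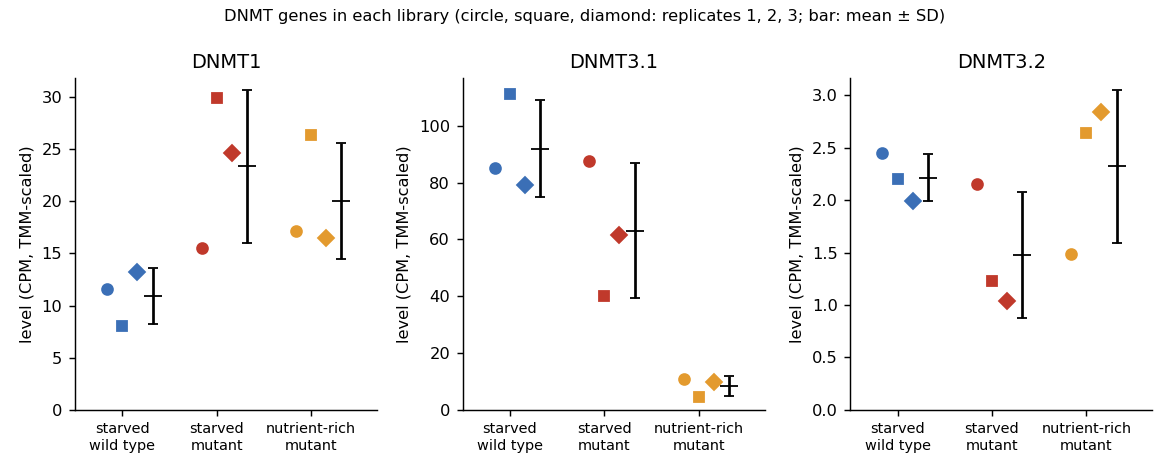
Level of the 3 DNMT genes in each library, in TMM-scaled CPM on linear axes from 0 that differ between panels, with replicates as separate markers and the mean ± SD of 3 libraries beside them. DNMT3.1 lies between 40.0 and 111 CPM in the 6 starved libraries and between 4.40 and 10.8 in the 3 nutrient-rich ones, while DNMT1 is lowest in the 3 wild-type libraries.

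**Figure D2:**
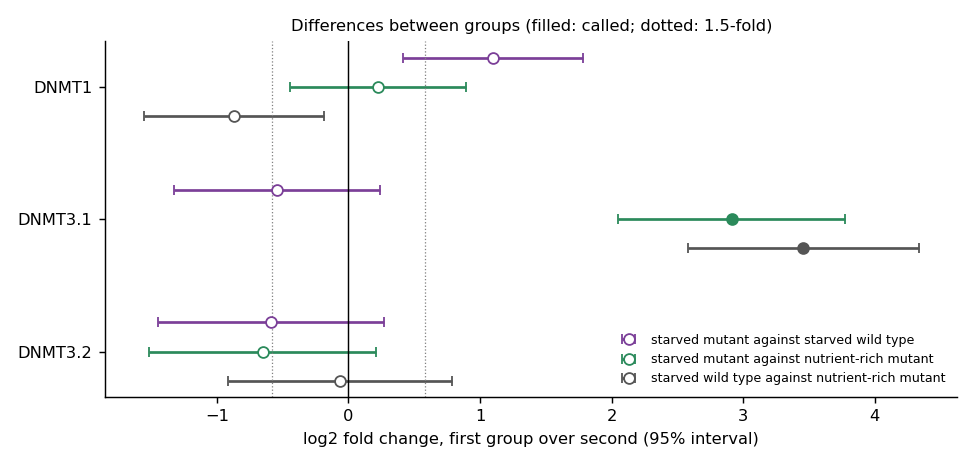
Log2 fold change of each DNMT gene in the 3 comparisons, first group over second, with 95% intervals from the edgeR fit, filled markers for called differences and dotted lines at 1.5-fold. DNMT3.1 is called in both comparisons with the nutrient-rich mutant, at 2.91 and 3.46, and DNMT1 between the starved groups has an interval of 0.41 to 1.78 without a call.

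Levels of different genes were compared per length, with the deposited RPKM (reads divided by the length of the gene model and the library size). In the order starved wild type, starved mutant, nutrient-rich mutant, DNMT3.1 had 21.9 ± 3.67, 16.5 ± 6.42 and 1.66 ± 0.826 RPKM (SD, n = 3). DNMT1 had 2.17 ± 0.484, 5.02 ± 1.54 and 3.19 ± 0.318 RPKM, and DNMT3.2 had 0.586 ± 0.0686, 0.407 ± 0.169 and 0.378 ± 0.0976. Among the tested features DNMT3.1 stood at percentile 80.1, 72.4 and 28.3 of RPKM in these groups, DNMT1 at 26.4, 43.2 and 40.1 and DNMT3.2 at 7.18, 5.19 and 7.94. The order was thus DNMT3.1, DNMT1, DNMT3.2 in each of the 6 starved libraries and DNMT1, DNMT3.1, DNMT3.2 in each of the 3 nutrient-rich ones.

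The ratio of DNMT3.1 to DNMT1 within a library, which needs no scaling between libraries, set the 3 groups apart. It was 8.86, 15.9 and 7.48 in starved wild-type replicates 1 to 3. Starved mutants had 6.69, 1.54 and 3.21, and nutrient-rich mutants 0.787, 0.216 and 0.605. The groups did not overlap in any pair, so that the family shifted from a large excess of DNMT3.1 reads per length in the starved wild type to more DNMT1 than DNMT3.1 in the nutrient-rich mutant. The geometric means of 10.2, 3.21 and 0.469 differed 3.17-fold between the starved groups, 6.85-fold between the mutant groups and 21.7-fold between the starved wild type and the nutrient-rich mutant. Each of these differences had p = 0.1 in an exact two-sided permutation test over 3 against 3 libraries, the smallest p this design allows, and an adjusted p of 0.129 over the 9 ratio tests. None of the 9 tests could therefore pass a threshold of 0.05.

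Ratios with DNMT3.2 rest on its 12 to 27 reads per library. DNMT3.2 to DNMT1 in RPKM was 0.245 to 0.326 for the starved wild type, above the 0.0491 to 0.172 of the starved mutant and the 0.0897 to 0.157 of the nutrient-rich mutant (exact permutation p = 0.1 for each, adjusted p = 0.129), and the mutant groups overlapped (exact permutation p = 0.5). The separation from the nutrient-rich mutant did not hold in reads. Starved wild-type replicate 3 had 21 DNMT3.2 and 139 DNMT1 reads, a lower ratio than the 27 and 157 of nutrient-rich mutant replicate 3. For DNMT3.2 the deposited RPKM divided by the CPM from library totals was 0.319 and 0.177 in these libraries, the highest and lowest values. For DNMT3.1 to DNMT3.2 the wild type had 29.1 to 48.9 and the starved mutant 26.2 to 65.4, an overlap (exact permutation p = 0.9). In the nutrient-rich mutant it was 1.95 to 8.78, below each starved library (exact permutation p = 0.1, adjusted p = 0.129). Between the starved groups the direction of this ratio turned with 1 library: the log2 difference of 0.12 became -0.05 without starved wild-type replicate 3 and -0.22 without starved mutant replicate 3.

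**Figure D3:**
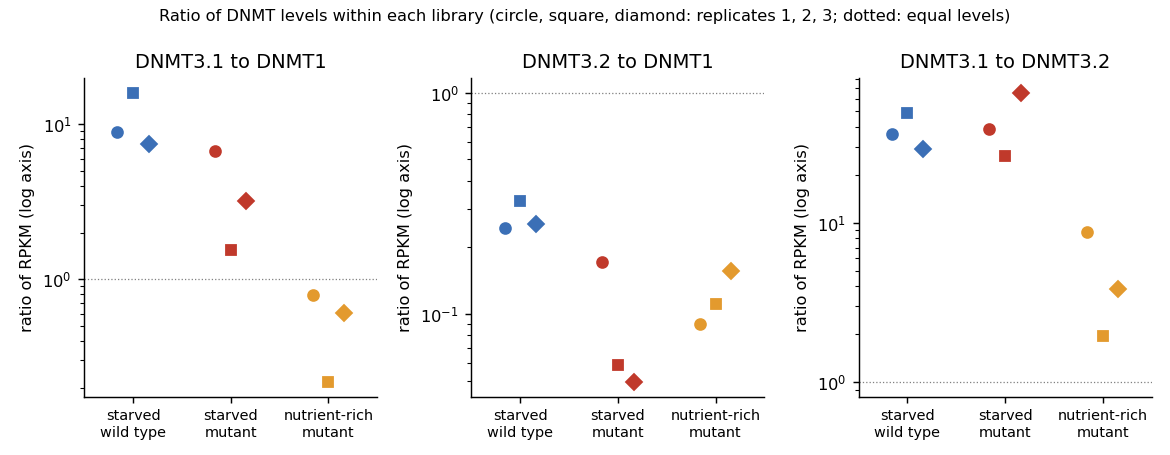
Ratio of RPKM between pairs of DNMT genes within each library, on log axes, with 1 marker per replicate and a dotted line at equal levels. The DNMT3.1 to DNMT1 ratio is 7.48 to 15.9 for the starved wild type, 1.54 to 6.69 for the starved mutant and 0.216 to 0.787, below equality, for the nutrient-rich mutant.

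DNMT1 and DNMT3.1 also ran opposite to each other among replicates of the same group. In the starved mutant, replicate 2 had the highest DNMT1 level and the lowest DNMT3.1 level, and replicate 1 the reverse. Starved wild-type replicate 2 had the lowest DNMT1 and the highest DNMT3.1, and nutrient-rich mutant replicate 2 the highest DNMT1 and the lowest DNMT3.1. The Pearson r of the deviations from the group means on the log2 scale was -0.92 over the 9 libraries, which belong to 3 groups, and -0.93 over the 8 libraries without nutrient-rich mutant replicate 2. As a description of how common this is, 2.89% of 8329 named genes with a mean of at least 5 CPM had an r under -0.9 with DNMT1 by the same measure. The other pairs had an r of -0.33 (DNMT1 and DNMT3.2) and 0.06 (DNMT3.1 and DNMT3.2).

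Genes of methyl group supply were described beside the family as a list by name. The list also holds genes named for the use of the methyl donor or of its products, among them those that lead homocysteine to cysteine. Of 19 genes matched by name 17 were tested, with a median log2 fold change of -0.03 between the starved groups (all features: -0.00), 0.33 between the mutant groups (all features: -0.07) and 0.05 between the starved wild type and the nutrient-rich mutant (all features: -0.02). Between the starved groups 2 were called higher and 0 lower, where 2.92% of all features were called higher and 4.24% lower. S-adenosylmethionine synthase (Dapma7bEVm004771t1), which makes the methyl donor, had 237, 262 and 238 CPM in starved wild-type replicates 1 to 3. Its mutant levels were 415, 558 and 476 CPM when starved and 263, 217 and 233 CPM on full food. Each starved mutant library thus lay above all 6 others. The log2 fold change was 0.98 against the starved wild type (standard error 0.15, edgeR adjusted p = 0.00512) and 1.03 against the nutrient-rich mutant (standard error 0.15, edgeR adjusted p = 0.00132), and both calls held in all 17 alternatives. The other call, a cystathionine gamma-lyase (Dapma7bEVm024058t1) of the pathway that leads homocysteine to cysteine, had a log2 fold change of 0.66 (edgeR adjusted p = 0.0469) between the starved groups. It lost that call in 7 of 9 fits without 1 library (edgeR adjusted p 0.0551 to 0.190), and was called in those without nutrient-rich mutant replicate 2 or replicate 1 of the starved mutant.

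Between the mutant groups 9 of the 17 genes on this list were called. In the starved mutant 6 were higher and 3 lower (all features: 11.1% higher and 12% lower). The 6 higher ones, given below, were S-adenosylmethionine synthase and genes that lead homocysteine to cysteine. The 3 that fell belong to the folate and methionine cycles. Methylenetetrahydrofolate reductase (Dapma7bEVm002622t1), which makes the folate that methionine synthase uses, had 25.1, 33.2 and 27.9 CPM when starved and 136, 57.2 and 94.1 CPM on full food, a log2 fold change of -1.74 with a standard error of 0.28 (edgeR adjusted p = 0.00229). Methionine synthase (Dapma7bEVm002113t1), which remakes methionine from homocysteine, fell by 1.16 on the log2 scale (edgeR adjusted p = 0.00149). Cytosolic serine hydroxymethyltransferase (Dapma7bEVm005920t1), which loads folate with its one-carbon unit, fell by 1.14 on the log2 scale (edgeR adjusted p = 0.00396), a call lost with RPKM in place of counts (adjusted p = 0.113). The nutrient-rich libraries lay above the starved mutant libraries for each of these, with replicate 2 the nearest to them.

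The 6 that rose with starvation in the mutant were S-adenosylmethionine synthase and 5 genes named for the conversion of homocysteine to cysteine. These were the cystathionine gamma-lyases Dapma7bEVm000743t1, Dapma7bEVm024058t1 and Dapma7bEVm004753t1 and the cystathionine beta-synthases Dapma7bEVm000912t1 and Dapma7bEVm027525t1, with log2 fold changes of 0.59 to 1.01 and edgeR adjusted p from 0.000505 to 0.0468. Several gene models carry the same name, so that reads could have been divided between near-identical copies, and the split between them is uncertain. The smallest of these changes was the least firm: the call of Dapma7bEVm004753t1 was lost in 7 of 9 fits without 1 library, all but those without starved wild-type replicate 2 and nutrient-rich mutant replicate 1 (edgeR adjusted p 0.0652 to 0.154), and that of Dapma7bEVm000912t1 without nutrient-rich mutant replicate 1 or 3 or replicate 2 of the starved mutant (edgeR adjusted p 0.0481 to 0.0564, the lowest with a fold change under 1.5). Adenosylhomocysteinase (Dapma7bEVm010152t1), which clears the product of methyl transfer, was called in none of the 3 comparisons. It had 852 to 899 CPM in starved wild types, 798 to 854 in starved mutants and 600 to 695 in nutrient-rich mutants.

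Against the nutrient-rich mutant the starved wild type showed 1 higher and 3 lower calls among the 17 (all features: 7.67% higher and 6.28% lower). The 3 lower ones were methylenetetrahydrofolate reductase (Dapma7bEVm002622t1, log2 fold change -1.96, edgeR adjusted p = 0.00307), methionine synthase (Dapma7bEVm002113t1, -1.11, edgeR adjusted p = 0.00399, and 0.0516 with RPKM) and cytosolic serine hydroxymethyltransferase (Dapma7bEVm005920t1, -0.72, edgeR adjusted p = 0.0438). The last of these was not called in 8 of 9 fits without 1 library (edgeR adjusted p 0.0650 to 0.132), the exception being the fit without nutrient-rich mutant replicate 2. The higher one was the cystathionine gamma-lyase Dapma7bEVm004753t1 (0.82, edgeR adjusted p = 0.0214), lost without starved wild-type replicate 1 or 2 or nutrient-rich mutant replicate 3 (edgeR adjusted p 0.0517 to 0.0832). This comparison shares the nutrient-rich libraries with that between the mutant groups.

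**Figure D4:**
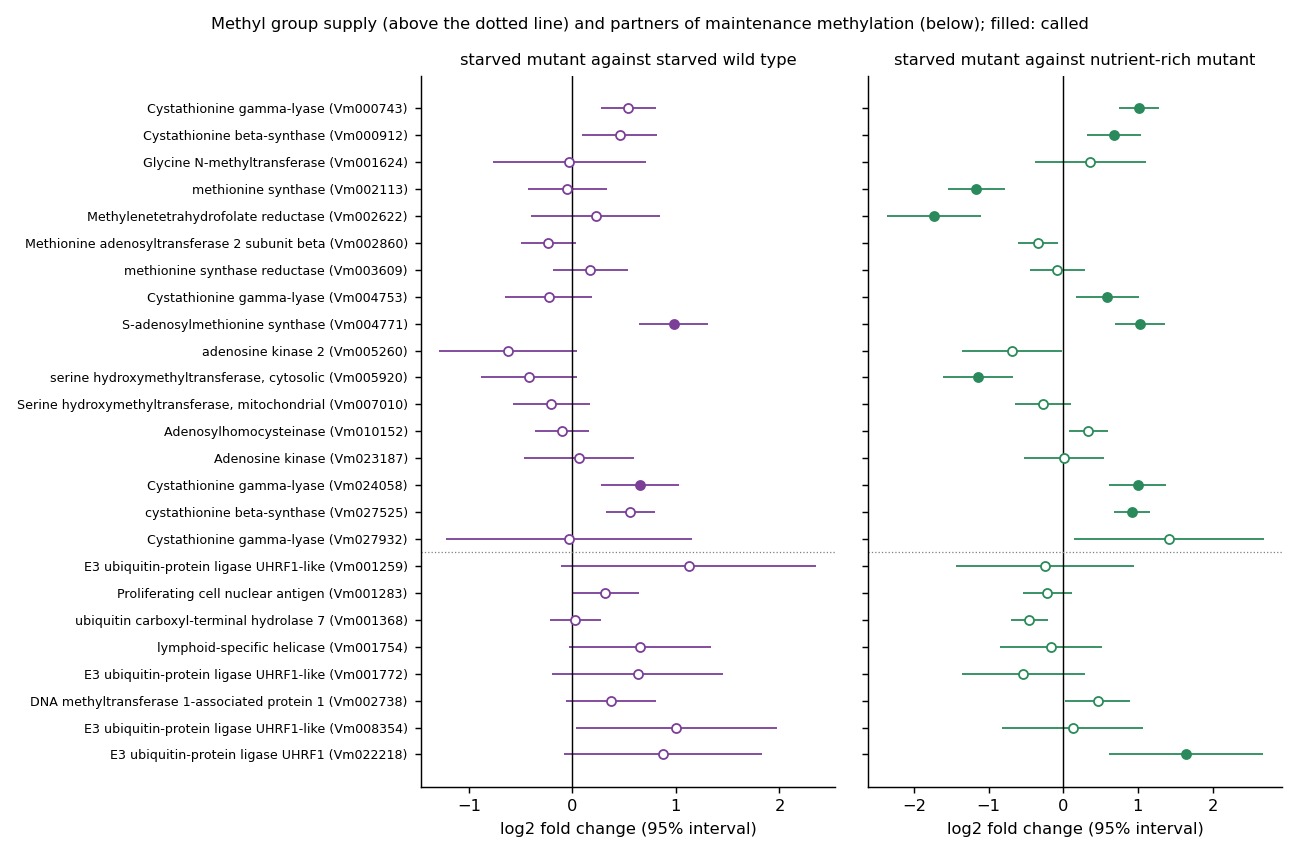
Log2 fold change with its 95% interval from the edgeR fit for the 17 tested genes of the methyl group supply list, which includes genes that lead homocysteine to cysteine (above the dotted line), and the 8 partners of maintenance methylation (below it). Markers are filled where called. The comparison between starved groups is on the left and that between mutant groups on the right. Labels give the end of the gene ID. S-adenosylmethionine synthase is called in both, at 0.98 and 1.03, and 3 genes of the folate and methionine cycles are called lower in the starved mutant on the right, at -1.74 to -1.14.

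Partners of maintenance methylation, 8 genes named for UHRF1, PCNA, USP7, HELLS and DNMT1-associated protein 1, all passed the filter. Their median log2 fold change between the starved groups was 0.64 (all features: -0.00) with 0 calls by edgeR, 0 by DESeq2 and 5 by limma-voom, and 1 gene had an unadjusted p under 0.05. The edgeR calls were 4 among the 6 starved libraries alone, and 4 were called without nutrient-rich mutant replicate 2. Of all features edgeR called 7.16%, DESeq2 2116 features and limma-voom 4181, and 19.5% had an unadjusted p under 0.05. The 6 starved libraries alone gave 2593 calls over all features, and the fit without nutrient-rich mutant replicate 2 gave 2678. The UHRF1-like gene Dapma7bEVm001259t1 had 4.80, 5.40 and 5.99 CPM in starved wild-type replicates 1 to 3 and 8.26, 14.9 and 12.1 CPM in starved mutants. Nutrient-rich mutants had 6.45 and 7.05 CPM in replicates 1 and 3 and 28.5 in replicate 2. The starved groups did not overlap, as for DNMT1, and 1 library set the spread of the nutrient-rich group. The log2 fold change between the starved groups was 1.12 for this gene (edgeR adjusted p = 0.308), 1.01 for Dapma7bEVm008354t1 (edgeR adjusted p = 0.237) and 0.63 for Dapma7bEVm001772t1 (edgeR adjusted p = 0.414), and without nutrient-rich mutant replicate 2, whose spread the shared fit uses, these 3 were called at edgeR adjusted p of 0.0114, 0.0377 and 0.0231.

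Between the mutant groups 1 of 8 partners was called (12.5%, all features: 23.1%). This was the gene named UHRF1 (Dapma7bEVm022218t1), with 1.69, 1.15 and 1.38 CPM when starved and 0.397, 0.629 and 0.316 when nutrient-rich (log2 fold change 1.65, edgeR adjusted p = 0.0277). It had 84 reads over all 9 libraries, and its call was lost in 6 of 9 fits without 1 library (edgeR adjusted p 0.0533 to 0.0963), namely those without nutrient-rich mutant replicate 1 or 3, starved wild-type replicate 1 or any starved mutant replicate. Its partners in the list had a median log2 fold change of -0.19 together with it (all features: -0.07). Against the nutrient-rich mutant the starved wild type had 0 calls among the 8 by edgeR and by limma-voom and 1 by DESeq2. Of all features edgeR called 13.9%, limma-voom 3511 features and DESeq2 3503. For the 8 partners, 5 unadjusted p were under 0.05 (all features: 33.2%), with a median of -0.67 (all features: -0.02). Without nutrient-rich mutant replicate 3 there were 3 calls, beside 2893 over all features.

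Genes for the removal and reading of methylcytosine showed no calls. Of 8 tested genes for removal (TET and base excision repair) 0 were called by edgeR in each comparison and by DESeq2, 0 had an unadjusted p under 0.05 and limma-voom called 1 between the mutant groups, with medians of 0.16, -0.04 and -0.18 for starved mutant over starved wild type, starved over nutrient-rich mutant and starved wild type over nutrient-rich mutant. The gene named TET2 (Dapma7bEVm018501t1) had 46.2 to 59.3 CPM in starved wild types, 66.3 to 88.9 in starved mutants and 36.4, 83.1 and 36.6 in nutrient-rich mutant replicates 1 to 3. Its log2 fold change between the mutant groups was 0.54 (edgeR adjusted p = 0.248) and became 1.04 and a call (edgeR adjusted p = 0.00141) without nutrient-rich mutant replicate 2. Of 10 tested methyl-CpG readers and NuRD subunits 0 were called in each comparison by edgeR, with 0, 0 and 1 genes at an unadjusted p under 0.05 while DESeq2 called 0, 0 and 1 and limma-voom 0, 1 and 0. Of 7 RNA cytosine-5 methyltransferases, which modify tRNA and rRNA, edgeR called 1 in 1 comparison (limma-voom 2 between the starved groups). This 28S rRNA methyltransferase (Dapma7bEVm009963t1) was lower in starved wild types than in nutrient-rich mutants (log2 fold change -0.97, edgeR adjusted p = 0.0200). That is 14.3% of the list, near the 13.9% of all features. The call was lost without any 1 of the wild-type replicates (edgeR adjusted p 0.0673 to 0.0836). For the lists of this paragraph, the edgeR shares over all features were 7.16%, 23.1% and 13.9% in the same order of comparisons. DESeq2 called 2116, 4765 and 3503 features and limma-voom 4181, 6016 and 3511.

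Histone lysine methyltransferases and demethylases, 28 tested genes, had 1 call between the starved groups and 1 between the mutant groups (3.57% each, below the 7.16% and 23.1% of all features). Both were the 2A-like methyltransferase Dapma7bEVm002532t1 of the family that places H3 lysine 4 methylation, at log2 fold changes of 0.62 (edgeR adjusted p = 0.0478) and 0.68 (edgeR adjusted p = 0.0125) for the starved mutant, which is in both comparisons. The first call was lost in 7 of 9 fits without 1 library, all but those without starved mutant replicate 1 and nutrient-rich mutant replicate 2 (edgeR adjusted p 0.0525 to 0.198), and the second without nutrient-rich mutant replicate 3 or replicate 2 or 3 of the starved mutant (edgeR adjusted p 0.0437 to 0.0610, the lowest with a fold change under 1.5).

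DNA replication genes make the new strands on which DNMT1 acts. Of 42 tested genes 3 were called higher and 0 lower between the starved groups (7.14%, all features: 7.16%), with a median log2 fold change of 0.33. Those were the catalytic subunit of DNA polymerase alpha (Dapma7bEVm006168t1, log2 fold change 0.85, edgeR adjusted p = 0.0309), origin recognition complex subunit 6 (Dapma7bEVm006081t1, 0.96, edgeR adjusted p = 0.0465) and the DNA primase large subunit (Dapma7bEVm006232t1). The primase subunit had 0 reads in each starved wild-type library and 2.16, 7.85 and 3.63 CPM in the starved mutant. The mean of the starved mutant was 45.9-fold above a floor of 3 reads over the wild-type group. In the nutrient-rich mutant the gene had 3.28, 9.43 and 3.05 CPM. The number called ran from 1 to 11 in the fits without 1 library, with 11 without nutrient-rich mutant replicate 2, 5 without starved mutant replicate 1 and 1 without any wild-type replicate or without starved mutant replicate 2 or 3. Over all features these fits gave 515 to 2678 calls, with 2678 without nutrient-rich mutant replicate 2 and 1641 without starved mutant replicate 1. Without a wild-type replicate or starved mutant replicate 2 or 3 they gave 515 to 752. The calls of DNA polymerase alpha and origin recognition complex subunit 6 were lost without any wild-type replicate or replicate 2 or 3 of the starved mutant, and the latter also without nutrient-rich mutant replicate 3 (edgeR adjusted p 0.0611 to 0.187 over these fits). Between the starved wild type and the nutrient-rich mutant 0 were called higher and 10 lower (all features: 7.67% higher and 6.28% lower) with a median of -0.60. The number called lower was 2 to 3 without 1 wild-type replicate (all features: 440 to 530 lower) and 17 without nutrient-rich mutant replicate 3 (all features: 1488 lower). Between the mutant groups 0 were called higher and 3 lower (all features: 11.1% higher and 12% lower), with a median of -0.21. Without starved mutant replicate 1, 1 was called each way (all features: 1682 higher and 2043 lower). There were 1 higher and 2 lower without nutrient-rich mutant replicate 2 (all features: 2778 and 2732). Leaving out nutrient-rich mutant replicate 3 gave 5 lower (all features: 2158 lower).

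Insulin, FOXO and TOR signalling, the pathway that reads food supply, had edgeR calls only in the comparisons with the nutrient-rich mutant. Of 20 tested genes 5 were called higher and 0 lower when the mutant was starved (25% of the list, all features: 23.1% called, 11.1% higher), with a median of -0.01 (all features: -0.07). The share called in either direction was thus near that of all features. All 5 calls were higher, 25% of the list, where 11.1% of all features were called higher and 12% lower. Insulin receptor substrate 1 (Dapma7bEVm004503t1) had 173 to 196 CPM when starved and 49.5 to 63.7 when nutrient-rich, a log2 fold change of 1.65 (edgeR adjusted p = 0.000129). Forkhead box protein O (Dapma7bEVm005483t1), the transcription factor that insulin signalling holds out of the nucleus, rose by 1.45 (edgeR adjusted p = 0.000369) and an insulin receptor-like gene (Dapma7bEVm009862t1) by 1.21 (edgeR adjusted p = 0.00210) on the log2 scale. In the starved wild type 4 were called higher than in the nutrient-rich mutant (20%, all features: 13.9% called, 7.67% higher), these 3 among them, at log2 fold changes of 1.37, 1.24 and 1.52. Between the starved groups 0 of the 20 were called by edgeR and by DESeq2, 0 had an unadjusted p under 0.05, and 1 was called by limma-voom. Of all features edgeR called 7.16%, DESeq2 2116 features and limma-voom 4181, and 19.5% had an unadjusted p under 0.05.

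The named genes whose levels were most like those of each DNMT gene were sought over the 9 libraries among 8329 genes with a mean of at least 5 CPM, by the Pearson r of log2 CPM. For DNMT1 they were cyclin-B3 (Dapma7bEVm003779t1, r = 0.984), which drives entry into mitosis, the ubiquitin ligase NRDP1 (Dapma7bEVm004368t1, 0.973), the mitotic kinase PLK1 (Dapma7bEVm005108t1, 0.971), hydroxyacid oxidase 1 (Dapma7bEVm001577t1, 0.968) and a beta carbonic anhydrase (Dapma7bEVm006859t1, 0.963). Of all candidates 0.576% had an r over 0.9 with DNMT1. The deviations from the group means, which enter the r that chose these 5 genes, correlated at 0.92 to 0.95 with those of DNMT1, and 0.768% of candidates had such an r over 0.9. Cyclin-B3 (Dapma7bEVm003779t1) was called higher in starved mutants than in starved wild types (log2 fold change 1.29, edgeR adjusted p = 0.0432), a call lost without nutrient-rich mutant replicate 1, any wild-type replicate or replicate 2 or 3 of the starved mutant (edgeR adjusted p 0.0506 to 0.174). PLK1 (Dapma7bEVm005108t1) had 1.20 (edgeR adjusted p = 0.0593). The differences between groups also enter the r that chose these genes, so their likeness to DNMT1 in these values was built in.

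For DNMT3.1 the most similar genes were suppressor of cytokine signaling 2-like (Dapma7bEVm002734t1, r = 0.993), a gene named only as uncharacterized (Dapma7bEVm005717t1, 0.991), glucose-6-phosphatase 3 (Dapma7bEVm001975t1, 0.990), a rho GTPase-activating protein 45-like gene (Dapma7bEVm000099t1, 0.990) and the RNA polymerase subunit RPABC3 (Dapma7bEVm018515t1, 0.988). All 9 libraries enter these values, and the 6 starved ones lie apart from the 3 nutrient-rich ones, a pattern shared by many genes: 4.05% of candidates had an r over 0.9 with DNMT3.1. The deviations from the group means, which enter the r that chose the 5 genes, correlated at 0.87 to 0.97, and 4.39% of candidates had such an r over 0.9. Glucose-6-phosphatase 3 (Dapma7bEVm001975t1), of a family that releases glucose from its phosphate, had 139 to 181 CPM in starved wild types, 51.5 to 107 in starved mutants and 3.77 to 8.11 in nutrient-rich mutants. It differed by 3.69 on the log2 scale between the mutant groups (edgeR adjusted p = 0.000190), and suppressor of cytokine signaling 2-like (Dapma7bEVm002734t1) had 1.26 (edgeR adjusted p = 0.00378). Such group differences also enter the r that chose the genes, so their direction, shared with DNMT3.1, was built in. For DNMT3.2 no candidate reached an r of 0.9, and the nearest with a descriptive name were an organic anion transporter (Dapma7bEVm003077t1, 0.886) and L-lactate dehydrogenase (Dapma7bEVm023492t1, 0.882). Ranking by Spearman's rho kept 1 of the 5 genes for each DNMT gene.

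**Figure D5:**
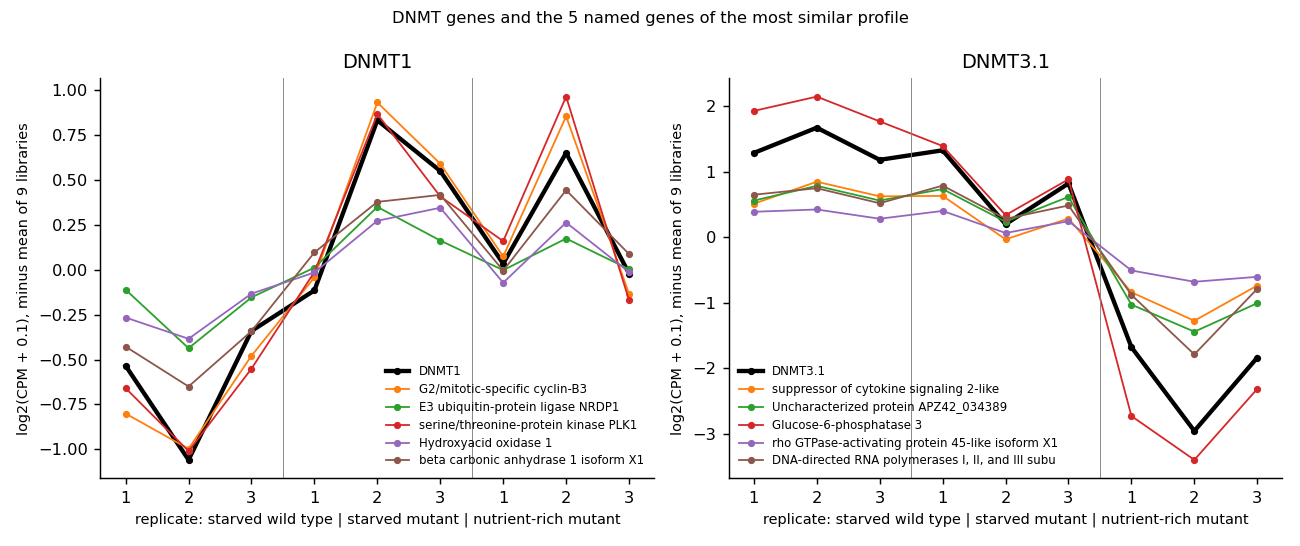
Log2 level (CPM plus 0.1) of DNMT1 and DNMT3.1 (black) and of the 5 named genes most like each, as the difference from the mean of the 9 libraries, with replicates 1 to 3 of each group from left to right; the lines only join the markers of 1 gene, and replicates have no order. DNMT1 and cyclin-B3 are lowest in the wild-type libraries and highest in starved mutant replicate 2, and DNMT3.1 and its 5 genes are lowest in nutrient-rich mutant replicate 2.

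The feature identifiers of the table carry a tag of the form sc and a number, which several features share. DNMT3.1, DNMT3.2 and the UHRF1-like gene Dapma7bEVm001259t1 share a tag with 138 features, of which 87 were tested, and DNMT1 shares one with 185 features, of which 98 were tested. Among the 87, 33.3% were called between the mutant groups, beside 23.1% of all features, and DNMT3.1 had the 5th highest log2 fold change while DNMT3.2 came 65th. Between the starved groups DNMT3.1 and DNMT3.2 came 68th and 69th of the 87, and DNMT1 came 8th of the 98. The sources used here do not define the tag, and no genome was used to place the genes.

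Markers of tissues moved with the same comparisons, and their part in the DNMT values was not tested. The 18 yolk genes summed to 36067 to 46909 CPM in starved wild types, 15792 to 17432 in starved mutants and 73056 to 96048 in nutrient-rich mutants, with 11 of 18 called lower between the starved groups (all features: 4.24%) and 13 of 18 between the mutant groups (all features: 12%). The 16 tested germ line and ovary genes summed to 1366 to 1405, 1993 to 2017 and 1312 to 3674 CPM in the same order. Starved mutants thus exceeded starved wild types in this sum. Nutrient-rich mutant libraries other than replicate 2 had sums of 1312 and 1368 CPM. The relation of this sum to the DNMT1 level was not tested. Of these 16, 1 was called higher between the starved groups (6.25%, all features: 2.92%), 3 without nutrient-rich mutant replicate 2 and 0 without nutrient-rich mutant replicate 3, any wild-type replicate or replicate 2 or 3 of the starved mutant. Over all features 546 were called higher with all libraries, 1206 without nutrient-rich mutant replicate 2 and 220 to 499 in the fits that gave 0. Cuticle genes had 45 of 130 called higher and 12 lower between the starved groups (all features: 2.92% higher and 4.24% lower). The number higher ran from 21 without starved wild-type replicate 1 or 2 to 73 without nutrient-rich mutant replicate 2. Over all features those fits called 220, 223 and 1206 higher. Cuticle genes summed to 7029 to 7411, 8190 to 10133 and 6978 to 10857 CPM. Gut peptidases summed to 11822 to 20046, 5877 to 10208 and 17045 to 21726 CPM, and muscle genes to 13724 to 15128, 14636 to 15609 and 8736 to 11848 CPM. Between the mutant groups the yolk, gut peptidase and muscle sums did not overlap, and those of germ line and cuticle genes did.

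The ribosomal protein gene RpL32 (Dapma7bEVm010195t1), used as an internal control for measuring DNMT transcripts by PCR, had 653 to 669 CPM in starved wild types, 555 to 608 in starved mutants and 708 to 949 in nutrient-rich mutants. The groups did not overlap for this gene, as for 41.2% of all features between the starved groups. That share was 40.3% between the mutant groups and 39.5% between the starved wild type and the nutrient-rich mutant. Relative to RpL32 the log2 difference of DNMT3.1 between the mutant groups was 3.48 (exact permutation p = 0.1, the smallest possible).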

How the data were processed

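The authors mapped paired reads of the 9 libraries to the D. magna genome of wFleaBase in CLC Genomics Workbench and deposited, per gene feature, the total read count, which is not normalized, and the RPKM. The deposited RPKM was not an exact rescaling of the counts. It served to compare genes within a library, for the ratios, and as an alternative to the counts in tests between groups. Group means and percentiles of RPKM are given as description. Other deposited tables hold fold changes and p-values of the authors' own comparisons and were not used. 1 count column is named differently from its RPKM partner (nutrient-rich mutant replicate 1), and 0 per-sample columns were left out.

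The tests used edgeR 4.0.16 (R 4.3.3) on the counts: filterByExpr over the 3 groups, TMM, and the quasi-likelihood F-test in 1 fit of all 9 libraries, with Benjamini-Hochberg adjustment over the 18675 features tested. Standard errors were derived from the F statistic. Log2 CPM for correlations had a prior count of 2. For gene IDs with more than 1 feature the feature with the most reads was taken. Alternatives were DESeq2 1.42.0, limma-voom with quality weights (limma 3.58.1), library totals, RLE size factors, every feature with at least 1 count, the 6 libraries of a pair, a replicate block, limma-trend on log2(RPKM + 0.5), levels relative to RpL32 and leaving out each library. Scripts were tested on simulated data. Ratios were tested by exact two-sided permutation.

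Lists were patterns on the deposited gene names. The text names the DNMT genes, RpL32, members of the lists on methylation, the called members with the largest change of the other lists and the 5 most similar genes. The members and lists were chosen with earlier results of these data known.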

Additional observations from a re-analysis of the deposited data

How the results depend on the processing

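The call of DNMT3.1 against the nutrient-rich mutant held in both starved groups under all 17 alternatives that give an adjusted p. Relative to RpL32 its log2 differences were 3.48 and 3.87, where the exact test cannot go below p = 0.1. DNMT1 between the starved groups was called by DESeq2 (log2 fold change 1.10), limma-voom (1.13), with library totals (1.19), with every feature of at least 1 count (1.09) and with the 6 libraries of the pair (1.10), and the fits without 1 library ran from 0.88 to 1.31. Between the starved wild type and the nutrient-rich mutant DNMT1 was called by DESeq2 alone (-0.87). DNMT3.2 was called between the starved groups by limma-voom alone (-0.97). Its difference between the mutant groups turned to 0.037 with RPKM. Its difference between the starved wild type and the nutrient-rich mutant, near 0, turned to 0.11 with limma-voom, 0.21 with library totals, 0.31 with RPKM and 0.30 relative to RpL32, and ran from -0.31 to 0.11 without 1 library. The cause was not tested. DNMT3.2 had the fewest reads of the 3 genes, 12 to 27 per library. Leaving out 1 library gave log2 ratio differences of DNMT3.1 to DNMT3.2 between the starved groups of -0.22 to 0.44 (-0.052 without starved wild-type replicate 3).

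The number of called features between the starved groups was 1337, and 2116 with DESeq2, 4181 with limma-voom, 2593 with the 6 libraries of the pair and 515 to 2678 without 1 library, highest without nutrient-rich mutant replicate 2. Between the starved wild type and the nutrient-rich mutant it was 2605, and 1550 with the 6 libraries of the pair and 1070 to 3168 without 1 library. With library totals the median log2 fold change of all features shifted from -0.07 to 0.30 between the mutant groups and from -0.02 to 0.23 between the starved wild type and the nutrient-rich mutant. The calls then split into 3446 higher and 1138 lower (2078 and 2241 with TMM) and 2123 higher and 448 lower (1432 and 1173 with TMM), and between the starved groups into 626 higher and 589 lower (546 and 791 with TMM).

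Replicate numbers did not pair the libraries: the deviations of same-numbered libraries correlated at -0.10 to 0.18 and those of different numbers at -0.18 to 0.15. With a replicate block DNMT1 between the starved groups had a log2 fold change of 1.04 (edgeR adjusted p = 0.115) and DNMT3.1 between the mutant groups 2.91 (edgeR adjusted p = 0.00304), and 1036, 3814 and 1871 features were called in the 3 comparisons. The block changed no call of a DNMT gene.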
